A study of Homo sapiens with 4 samples.

Results

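HMOX1 and 8 further genes of the NRF2 antioxidant pathway (NQO1, GCLM, GCLC, TXNRD1, SRXN1, OSGIN1, NFE2L2 and KEAP1) were followed between 4 and 8 h of merbarone treatment. They are 9 of the 23459 genes listed in each library and were chosen by name, HMOX1 because it had been seen to rise between these times. All 9 were found by their symbols and passed the filter for lowly expressed genes (CPM over 1 in 2 or more libraries), which left 12559 genes to test. The samples were 4 RNA-Seq libraries of wild type hTERT RPE-1 cells, a human retinal pigment epithelial line immortalized with telomerase, kept 48 h in medium with 0.1% serum and then given 200 μM merbarone, a catalytic inhibitor of TOP2. There were 2 replicates at 4 h and 2 at 8 h. Untreated or DMSO-treated cells were not analysed here, so every change below is from 4 h to 8 h in cells that all carried the drug and the serum starvation, and time in drug cannot be told apart from time in low serum.

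NRF2, the product of NFE2L2, is a transcription factor whose protein level is set mainly by degradation. KEAP1 binds it and presents it to the CUL3 ubiquitin ligase, and oxidants or electrophiles that modify cysteines of KEAP1 let NRF2 accumulate. NRF2 then pairs with a small MAF protein and binds antioxidant response elements, while BACH1, a heme sensor, occupies the same elements as a repressor and is best known for holding HMOX1 down. Since much of this control acts on proteins, the levels of NFE2L2 and KEAP1 mRNA do not measure NRF2 activity. HMOX1 also answers to signals other than NRF2.

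Depth ranged from 8064450 to 10324697 counts per library. Levels are given as CPM, a gene's counts scaled to a common library total, after TMM, a scaling that sets aside the genes that differ most between libraries (TMM-CPM). A log2FC is the log2 fold change from 4 h to 8 h in the edgeR fit, positive where 8 h was higher, and its standard error comes from the same fit. The RPE identity markers MITF (669 to 882 counts per library) and OTX2 (132 to 193) were present, while RPE65 (2 to 7), RLBP1 (0 to 2), BEST1 (2 to 6) and TYR (0 in every library) were at or near 0, and 4 of the 10 markers of that list passed the filter. None of the 6 markers of blood, endothelial, photoreceptor and smooth muscle cells passed it, with at most 8 counts in a library. Of 7 epithelial and mesenchymal markers, 5 passed, while EPCAM (0 in every library) and CDH1 (0 to 1) were at or near 0. Between the same times KRT18 fell (log2FC −0.51, edgeR adjusted p = 3.72e-05), KRT7 (0.46, edgeR adjusted p = 0.000616) and VIM (0.36, edgeR adjusted p = 0.000623) rose, and KRT8 (0.03) and CDH2 (0.09) did not pass. Their part in the results was not tested. In such bulk libraries, a change in RNA per cell and a change in the number of cells holding it cannot be told apart.

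Antioxidant response elements are what NRF2 targets share, and the promoters of the genes were searched for their core. RefSeq promoter windows (GRCh38.p14, 250 bases before to 50 after a start) were matched for 8 of the 9 genes, HMOX1 not among them. The core of the antioxidant response element, TGACNNNGC on either strand, was found for GCLM, TXNRD1 and KEAP1. Sequence beyond these short windows was not searched, so a gene without a match may still hold an element farther away. It was present in 13.3% of all 35116 windows and for 19.5% of the tested genes that had a window. The AP-1 letters TGACTCA, which can lie inside an antioxidant response element, were found for OSGIN1. They are in 4.95% of all windows and were found for 4.73% of the tested genes that had a window. The letters TGATGCAA, of the element shared by ATF4 and C/EBP factors, were found for none of the 8 genes. They are in 0.866% of windows and were found for 0.707% of the tested genes that had a window. To show the letters behind these counts, 1 match is printed for each of the 4 genes, along the gene's strand with the match in capitals (read on the opposite strand for GCLM, TXNRD1 and KEAP1):
GCLM, chr1:93909446-93909474, minus strand: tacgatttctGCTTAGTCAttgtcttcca
TXNRD1, chr12:104286920-104286948, plus strand: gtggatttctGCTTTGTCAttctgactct
KEAP1, chr19:10502784-10502812, minus strand: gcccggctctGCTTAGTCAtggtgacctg
OSGIN1, chr16:83953133-83953159, plus strand: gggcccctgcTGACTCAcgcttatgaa
In these windows the match began 34 (GCLM), 102 (TXNRD1), 31 (KEAP1) and 97 (OSGIN1) bases before the start. The search fixes part of the letters of each match. The printed core matches of GCLM and KEAP1 are the same, GCTTAGTCA, and that of TXNRD1 differs from them in 1 letter left free. All of these core matches follow the letters tct. For TXNRD1 and KEAP1 the printed match is 1 of several, so likeness between the lines depends on which were printed. TXNRD1 had 2 further matches at its other start, TGACTTCGC and GCTCCGTCA, and KEAP1 had 1 further match in the same window, TGACACGGC.

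HMOX1 (NCBI Gene 3162; hg19 chromosome 22, 35776354 to 35790207, plus strand) encodes the inducible heme oxygenase, which opens heme to biliverdin, iron and carbon monoxide. Its level was 77.2 and 89.6 TMM-CPM in replicates 1 and 2 at 4 h, and 249.5 and 227.3 at 8 h, from 825, 947, 2339 and 1754 counts. Both 8 h libraries lay well above both 4 h libraries. The means were 83.4 ± 8.72 and 238.4 ± 15.7 (SD, n = 2 each), and the log2FC was 1.52 with a standard error of 0.09, a 2.86-fold difference. A larger log2FC was found for 36 of the 12559 tested genes.

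TXNRD1 and SRXN1 act on protein thiols. TXNRD1 (Gene 7296; chromosome 12, 104609557 to 104744085, plus strand) is the cytosolic thioredoxin reductase, a selenoprotein that uses NADPH to keep thioredoxin reduced. It had the highest TMM-CPM among the 9 genes, 524.4 and 522.3 at 4 h against 1084 and 853.1 at 8 h. The 4 h replicates were nearly equal and the 8 h replicates were not, replicate 1 being the higher. The means were 523.3 ± 1.496 and 968.6 ± 163 (SD, n = 2 each), and log2FC was 0.89 ± 0.09 (standard error). Without replicate 1 at 8 h it was 0.71, and without replicate 2 at 8 h it was 1.05. The small gene EID3 lies within TXNRD1 and is listed with 4 to 24 counts per library. SRXN1 (Gene 140809; chromosome 20, 627259 to 633844, minus strand), sulfiredoxin, restores overoxidized peroxiredoxins. It showed the same order of libraries at 8 h, with 173.0 and 174.5 TMM-CPM at 4 h against 269.9 and 221.4. Its log2FC was 0.50 ± 0.09 (standard error), or 0.35 without replicate 1 at 8 h.

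GCLC and GCLM form glutamate-cysteine ligase, the first and rate-limiting enzyme of glutathione synthesis, GCLC as the catalytic and GCLM as the modifier subunit. GCLC (Gene 2729; chromosome 6, 53362139 to 53481768, minus strand) measured 31.2 and 26.5 TMM-CPM at 4 h against 34.0 and 34.3 at 8 h. Both 8 h values were higher, but the nearest libraries of the times lay closer together than the 4 h replicates did, and the log2FC was 0.25 ± 0.12 (standard error). GCLM (Gene 2730; chromosome 1, 94350755 to 94375012, minus strand) measured 23.0 and 18.3 TMM-CPM at 4 h against 26.5 and 21.6 at 8 h. The times overlapped, and the log2FC of 0.22 had a standard error of 0.15. With libraries left out in turn, log2FC ran from 0.13 to 0.35 for GCLC and from 0.06 to 0.38 for GCLM.

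NQO1 (Gene 1728; chromosome 16, 69740899 to 69760571, minus strand) encodes a quinone reductase and is a widely used readout of NRF2. Its TMM-CPM of 339.3 and 350.6 at 4 h overlapped with the 352.4 and 310.5 of 8 h. Its log2FC was −0.06 ± 0.08 (standard error) and ran from −0.20, after correction for the trend with mean expression, to 0.03, without replicate 2 at 8 h. OSGIN1 (Gene 29948; chromosome 16, 83964916 to 83999937, plus strand), an oxidative stress-induced growth inhibitor, had the fewest reads of the 9 genes summed over the libraries, with 76 and 101 counts at 4 h and 198 and 185 at 8 h. Its level was 7.11 and 9.55 TMM-CPM at 4 h against 21.1 and 23.98 at 8 h. The 8 h libraries were again well above those of 4 h, and the log2FC of 1.43 carried the widest standard error of the 9 genes, 0.18.

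NFE2L2 and KEAP1 encode the regulators. NFE2L2 (Gene 4780; chromosome 2, 178083395 to 178257484, minus strand) measured 218.2 and 195.4 TMM-CPM at 4 h against 240.1 and 236.4 at 8 h, and its log2FC was 0.20 ± 0.08 (standard error). The times did not overlap, but this log2FC was 0.10 with scaling by library size alone and 0.08 after correction for the trend with mean expression, and 0.12 without replicate 2 at 4 h. KEAP1 (Gene 9817; chromosome 19, 10596801 to 10614234, minus strand) measured 72.0 and 83.1 TMM-CPM at 4 h against 107.5 and 104.9 at 8 h. Both 8 h libraries were above those of 4 h, and its log2FC was 0.45 ± 0.09 (standard error).

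**Figure D1:**
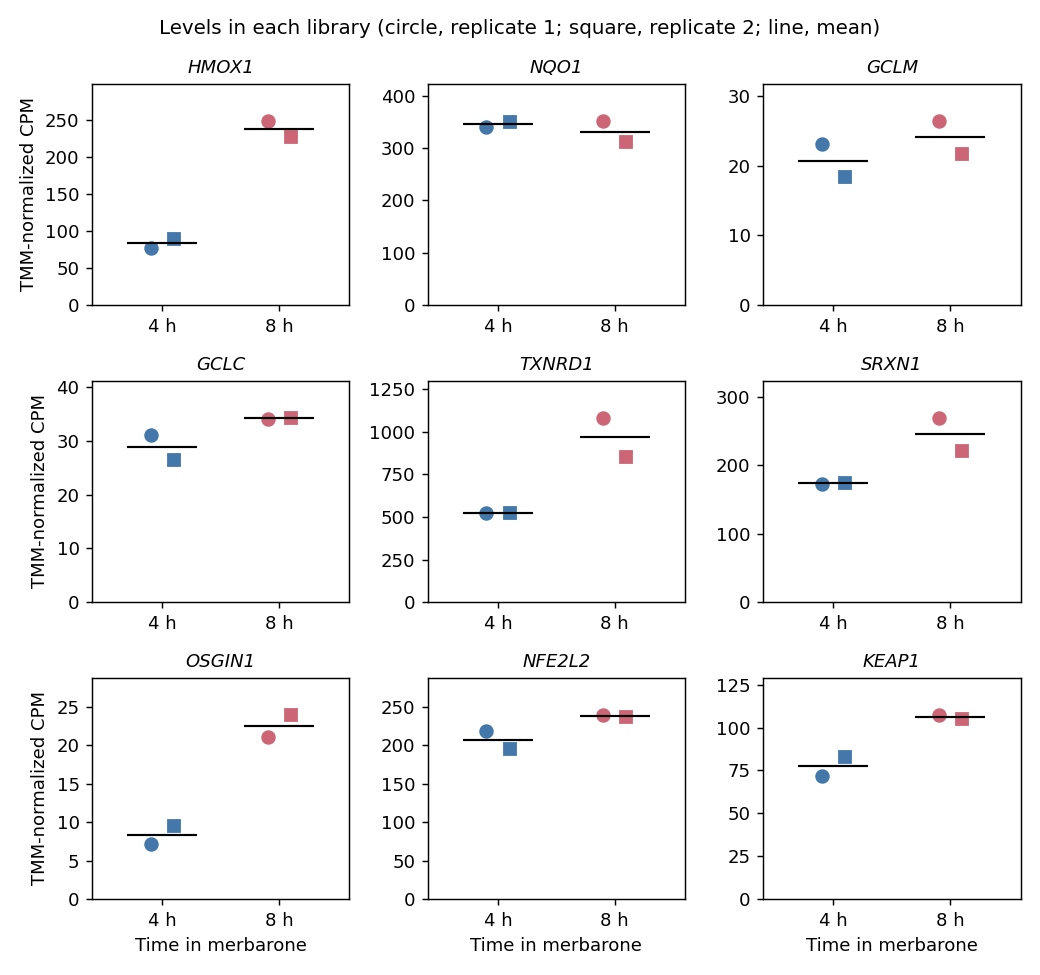
TMM-normalized CPM of the 9 genes (vertical axes, each from 0 and on its own scale) in the 4 h (blue) and 8 h (red) libraries, with circles for replicate 1, squares for replicate 2 and lines for the means. HMOX1 and OSGIN1 stand far above their 4 h values at 8 h, TXNRD1 and SRXN1 have the most widely spaced 8 h replicates among the genes that stand higher, and the times overlap for NQO1 and GCLM.

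The 9 genes did not move as a block. Their log2FC ran from −0.06 (NQO1) to 1.52 (HMOX1), with a median of 0.45, against a median of −0.00 over all tested genes. Since the genes were chosen with this comparison known, their changes are described without a p. At an adjusted p below 0.05 (edgeR, with Benjamini-Hochberg adjustment over all tested genes), 6 of them were higher at 8 h, where 19.9% of all tested genes were (18.8% were lower), and 0 were lower. With an absolute log2FC above 1 as well, 2 were higher, HMOX1 and OSGIN1, where 1.45% of all tested genes were, and 0 were lower, where 3.88% were. Both 8 h libraries lay above both 4 h libraries for 7 of the 9, where 34.8% of all tested genes did so, and below them for 0, where 34.9% did. Without TMM, with the library totals as the single scaling, the fit gave a median over all genes of −0.11 and changed the 2500 higher and 2367 lower genes to 1698 and 3289. With it 5 of the 9 were higher, NFE2L2 being the gene lost. The number was also 5 with DESeq2, with the other filters and after correction for the trend with mean expression. With library size alone, both 8 h libraries of NQO1 lay below both 4 h libraries.

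**Figure D2:**
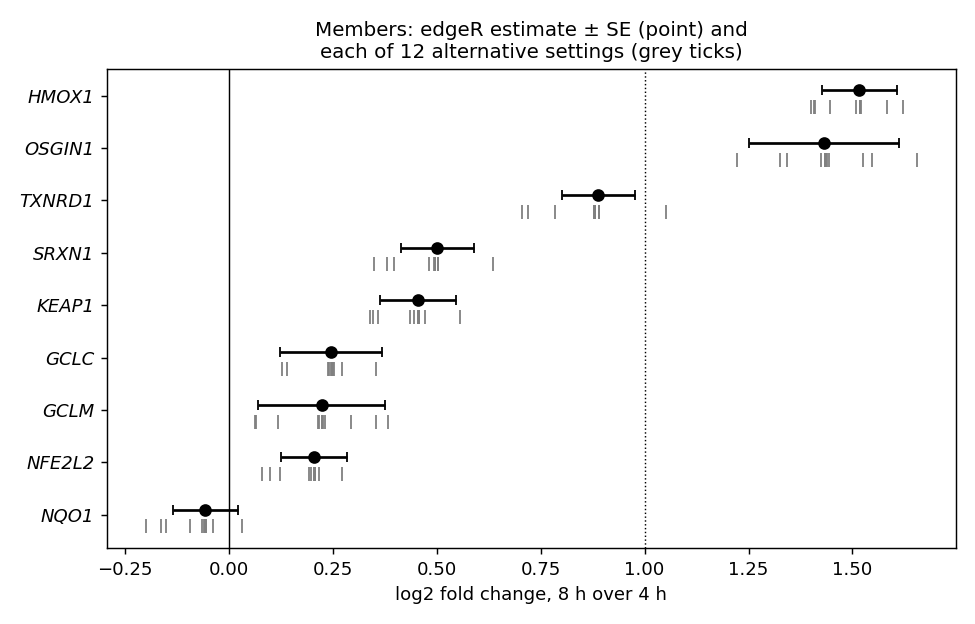
The log2 fold change from 4 h to 8 h (horizontal axis) of each gene, as the edgeR estimate with its standard error (points and bars) and under each of 12 other settings of test, scaling, filter, block or left-out library (grey ticks). The dotted line marks the study's fold-change threshold of 1, and every setting leaves HMOX1 and OSGIN1 above it.

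Dividing TMM-CPM by the length of the canonical transcript in kb allows an approximate comparison of levels between genes. Reads across splice junctions and reads without a single position are missing from the counts, and the share missing can differ between genes. At 4 h the order was NQO1 (136.8 ± 3.15 TMM-CPM per kb), TXNRD1 (135.6 ± 0.388), NFE2L2 (84.5 ± 6.60), SRXN1 (68.7 ± 0.415), HMOX1 (53.7 ± 5.61), KEAP1 (30.2 ± 3.07), GCLC (7.62 ± 0.877), OSGIN1 (4.34 ± 0.896) and GCLM (4.24 ± 0.678; SD, n = 2 throughout). The first pair of this order lay within their spread, as did the last. At 8 h TXNRD1 led with 250.9 ± 42.3, followed by HMOX1 (153.4 ± 10.1), NQO1 (131.5 ± 11.7), NFE2L2 (97.4 ± 1.08) and SRXN1 (97.2 ± 13.6), of which the last pair lay within their spread. KEAP1 (41.4 ± 0.740), OSGIN1 (11.7 ± 1.05), GCLC (9.03 ± 0.0587) and GCLM (4.93 ± 0.697) followed. HMOX1 thus stood below NFE2L2, SRXN1 and NQO1 at 4 h and above them at 8 h. Among tested genes with a known length, the level of HMOX1 per kb was at percentile 89.8 at 4 h and 96.8 at 8 h, and that of GCLM at 30.6 and 35.5.

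Ratios of reads per kb between genes of the same library are free of any scaling between libraries. The pairs were chosen after the values were seen. Relative to its constitutive paralog HMOX2, HMOX1 had 2.07 and 2.08 times the reads per kb in the 4 h libraries and 6.49 and 6.92 times in those of 8 h. Against NQO1, HMOX1 went from ratios of 0.369 and 0.414 to 1.15 and 1.19, so that it had fewer reads per kb than NQO1 in both 4 h libraries and more in both 8 h libraries. TXNRD1 matched NQO1 closely at 4 h, with ratios of 1.01 and 0.973, and exceeded it at 8 h, with 2.01 and 1.79. Against its mitochondrial counterpart TXNRD2, TXNRD1 went from 13.7 and 16.1 to 37.3 and 29.8, and against its substrate thioredoxin (TXN) from 1.23 and 1.28 to 2.01 and 1.79. These ratios did not overlap between the times.

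The paired partners of the pathway kept closer to each other. The 4 h ratios of GCLC to GCLM, 1.75 and 1.86, lay between the 1.66 and 2.05 of 8 h. NFE2L2 per KEAP1 went from 3.18 and 2.46 to 2.34 and 2.36, lower at 8 h by little beside the gap between the 4 h replicates. NFE2L2 per BACH1, activator against repressor, went from 1.93 and 1.86 to 2.05 and 1.93, with the times overlapping.

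**Figure D3:**
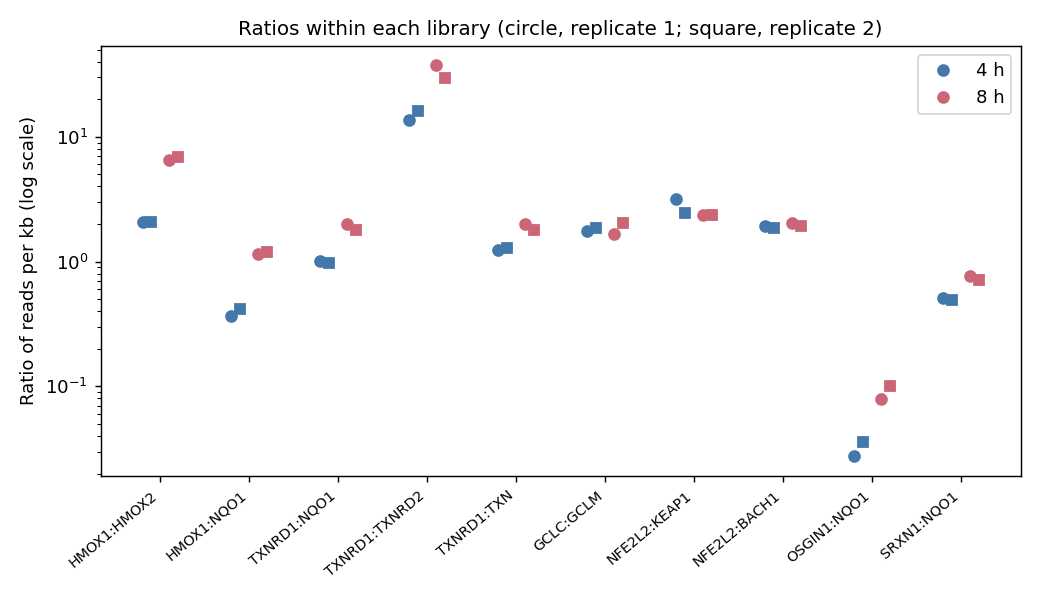
Ratio of reads per kb between pairs of genes within each library (log axis), with 4 h in blue, 8 h in red, circles for replicate 1 and squares for replicate 2. The ratios of HMOX1, TXNRD1, SRXN1 and OSGIN1 to NQO1 are higher in both 8 h libraries, while those of GCLC to GCLM and NFE2L2 to BACH1 overlap.

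The 3 genes with an antioxidant response element core printed above differed in response, with a log2FC of 0.22 for GCLM, 0.45 for KEAP1 and 0.89 for TXNRD1. OSGIN1, at 1.43, held the AP-1 letters and no core in its window. Of all 1985 tested genes with the core, 21.9% were higher at 8 h by the same adjusted p, where 20.1% of all tested genes with a window were. A match of letters describes the sequence and is not a binding site.

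The other genes of the pathway were taken as 117 genes in 7 lists by known role, of which 108 were tested. At an adjusted p below 0.05 (edgeR, over all tested genes), 27 rose and 19 fell, as shares 25% and 17.6%, beside the 19.9% and 18.8% of all tested genes. The median log2FC of the 108 was 0.07. By list, 52.6% were higher and 0% lower for NRF2 control, and 0% and 31.6% for quinone and drug metabolism. The shares were 30% and 15% for glutathione, and 26.7% and 20% for thioredoxin and peroxiredoxin. NADPH supply had 30% and 30%, heme and iron 14.3% and 14.3%, and superoxide and peroxide 18.2% and 18.2%. Each list holds few genes, so its shares compare only roughly with those of all tested genes. The counts depended on the scaling, for these genes and for all tested genes. With library size alone 18 were higher and 23 lower, where 1698 and 3289 of all 12559 tested genes were. After correction for the trend with mean expression 18 were higher and 19 lower, where 2276 and 2309 of all tested genes were. With the fold-change threshold as well, 2 rose (MAFF and SLC7A11) and 2 fell (CHAC2 and CBR3).

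Among 19 tested genes of NRF2 control, 10 rose and 0 fell, with a median log2FC of 0.22. The largest rises were in a partner and a coactivator. MAFF, a small MAF, rose from 184.8 and 180.1 TMM-CPM to 372.3 and 364.1 (log2FC 1.01, standard error 0.07, edgeR adjusted p = 6.39e-09). EP300, a histone acetyltransferase, rose from 46.2 and 49.6 TMM-CPM to 87.5 and 98.0 (log2FC 0.95, standard error 0.10, edgeR adjusted p = 3.76e-07). The remaining 8 rose by log2FC of 0.22 to 0.90. They were SQSTM1, MAFG, MAFK, NFE2L1, FBXW11, GSK3B, SYVN1 and CREBBP. FBXW11 (0.47, edgeR adjusted p = 0.000308), GSK3B (0.45, edgeR adjusted p = 0.000441) and SYVN1 (0.33, edgeR adjusted p = 0.00665) were among them. The list mixes genes that act for NRF2 with genes that act against it, such as CUL3 and BACH1. Its counts therefore give no direction for NRF2. Chosen after the values were seen, MAFK (log2FC 0.90, edgeR adjusted p = 4.98e-07) and MAFG (0.60, edgeR adjusted p = 7.82e-06) also belong to the small MAFs, so all 3 of them rose, as they did under each of the alternatives run. MAFF overlaps PLA2G6 on the opposite strand, which is listed with 88 to 112 counts per library. SQSTM1, the autophagy receptor that sequesters KEAP1, rose by 0.32 (edgeR adjusted p = 0.00133), but its adjusted p reached 0.125 among the alternatives. BACH1 (log2FC 0.14, edgeR adjusted p = 0.164) and CUL3 (0.20, edgeR adjusted p = 0.0898) did not pass. With library size alone, 8 genes of this list were higher and 1 was lower, and without replicate 1 at 4 h, 7 were higher.

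Around HMOX1, 14 genes of heme and iron were tested, of which 2 rose and 2 fell. The risers were the subunits of ferritin, which stores the iron that heme breakdown releases. FTL rose from 830.4 and 1054 TMM-CPM to 1452 and 1233 (log2FC 0.51, standard error 0.09, edgeR adjusted p = 0.000274), and FTH1 rose by 0.25 (standard error 0.08, edgeR adjusted p = 0.0164). Both have many processed pseudogenes, so reads kept for a single position make their counts uncertain. FTL missed the threshold with DESeq2 (adjusted p = 0.0524) at nearly the same log2FC, and its log2FC was 0.34 without replicate 1 at 4 h and 0.33 after correction for the trend with mean expression, where it still passed. FTH1 no longer passed with library size alone, after correction for the trend with mean expression or without replicate 1 at 4 h. Biliverdin reductase A (BLVRA), which acts on the product of HMOX1, fell by 0.30 (standard error 0.10, edgeR adjusted p = 0.0287), and FECH, the last enzyme of heme synthesis, fell by 0.30 (standard error 0.11, edgeR adjusted p = 0.0420). BLVRA and FECH did not pass with DESeq2, among other alternatives, and over the alternatives 1 to 3 genes of the list were higher and 0 to 2 lower. HMOX2 measured 40.2 and 46.4 TMM-CPM at 4 h against 41.4 and 35.4 at 8 h, and its log2FC of −0.17 did not pass (edgeR adjusted p = 0.271).

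Of 20 tested glutathione genes, 6 rose and 3 fell, but 4 were higher and 4 lower with library size alone, and 4 were higher and 3 lower after correction for the trend with mean expression or without replicate 1 at 4 h. SLC7A11, the cystine importer that supplies glutathione synthesis, went from 73.4 and 59.2 TMM-CPM at 4 h to 190.6 and 171.5 at 8 h, the largest change among the genes of the lists that rose (log2FC 1.45, standard error 0.10, edgeR adjusted p = 2.58e-09). Its log2FC was close to that of HMOX1. The partner chain SLC3A2, named after the values were seen, rose by 0.68 (edgeR adjusted p = 2.92e-07). Both are also known targets of ATF4. Of the 92 tested pathway genes with a promoter window, 27 held the antioxidant response element core, SLC3A2 among them. That is 29.3%, beside 19.5% of all tested genes with a window. The AP-1 letters were held by 6 (6.52%, beside 4.73%), again with SLC3A2. The letters TGATGCAA were held by 1 (1.09%, beside 0.707%), CHAC1, which fell. Sequence beyond these short windows was not searched. A part of ATF4 was not tested. GPX1, a glutathione peroxidase, rose from 61.3 and 55.2 to 93.7 and 99.0 TMM-CPM (log2FC 0.72, standard error 0.09, edgeR adjusted p = 6.38e-06). The genes that fell most were the glutathione-degrading CHAC2, from 82 and 53 counts to 24 and 13 (log2FC −1.55, standard error 0.32, edgeR adjusted p = 0.000708), and CHAC1 (log2FC −0.36, standard error 0.08, edgeR adjusted p = 0.00179). CHAC2 overlaps ASB3, which is listed with 246, 250, 214 and 179 counts, so its low counts are uncertain.

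Of 15 tested thioredoxin and peroxiredoxin genes, 4 rose and 3 fell, and none had a log2FC as far from 0 as that of TXNRD1. There were 1 higher and 3 lower with library size alone or after correction for the trend with mean expression, 2 and 3 with DESeq2, 1 and 2 without replicate 1 at 4 h, and 2 and 2 without replicate 2 at 4 h. SESN1 (log2FC 0.38, edgeR adjusted p = 0.00360) and PRDX5 (0.29, edgeR adjusted p = 0.00396) rose most, but PRDX5 no longer passed with library size alone, after correction for the trend with mean expression or without replicate 1 at 4 h, and SESN1 not without replicate 2 at 4 h. PRDX1 (−0.41, edgeR adjusted p = 0.00101) and the mitochondrial PRDX3 (−0.30, edgeR adjusted p = 0.0159), both substrates of SRXN1, fell most, and PRDX3 no longer passed without replicate 1 at 4 h or without replicate 2 at 8 h. Among 10 genes of NADPH supply, 3 rose and 3 fell, but 1 was higher and 4 lower after correction for the trend, 2 and 4 with library size alone or without replicate 2 at 8 h, 2 and 2 without replicate 1 at 8 h, and 1 and 2 without replicate 1 at 4 h. PGLS (0.58, edgeR adjusted p = 0.00230) and TKT (0.33, edgeR adjusted p = 0.000879), of the pentose phosphate pathway, rose most, while NNT (−0.49, edgeR adjusted p = 0.000200), the mitochondrial transhydrogenase, and IDH1 (−0.44, edgeR adjusted p = 0.00245) fell most. TKT no longer passed without replicate 1 at 4 h or after correction for the trend, and NNT overlaps the antisense gene NNT-AS1, with 119 to 196 counts per library. PGLS had 50.03 and 74.0 TMM-CPM in the 8 h replicates and did not pass without the higher of them.

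Quinone and drug metabolism, the list to which NQO1 belongs by role, had 0 genes that rose and 6 that fell among 19 tested, with a median log2FC of −0.05. Under the alternatives, 0 to 1 were higher and 4 to 6 lower. The carbonyl reductase CBR3 fell from 19.5 and 19.2 TMM-CPM to 9.60 and 7.91 (log2FC −1.13, standard error 0.17, edgeR adjusted p = 4.83e-05), and CBR4 fell by 0.76 on the log2 scale (standard error 0.15, edgeR adjusted p = 0.000732). CBR3 overlaps the antisense gene CBR3-AS1, with 45, 40, 39 and 34 counts. The other 4 that fell, CBR1 and the efflux pumps ABCC1, ABCC4 and ABCC5, had log2FC from −0.68 to −0.23. The aldo-keto reductases AKR1B10, AKR1C1, AKR1C2 and AKR1C3, usual NRF2 targets in other epithelia, did not reach the filter. AKR1C1 and AKR1C2 were at 0 counts in every library, but the AKR1C genes are near-identical copies whose reads the single-position rule can remove. For superoxide and peroxide, 2 of 11 genes rose, the superoxide dismutases SOD3 (0.53, edgeR adjusted p = 0.00620) and SOD2 (0.47, edgeR adjusted p = 0.000474), and 2 fell, the methionine sulfoxide reductases MSRB1 (−0.89, edgeR adjusted p = 0.000172) and MSRB3 (−0.34, edgeR adjusted p = 0.000983). SOD3 did not pass without replicate 1 at 4 h or without replicate 2 at 8 h, and 4 genes of the list were lower without replicate 1 at 8 h.

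**Figure D4:**
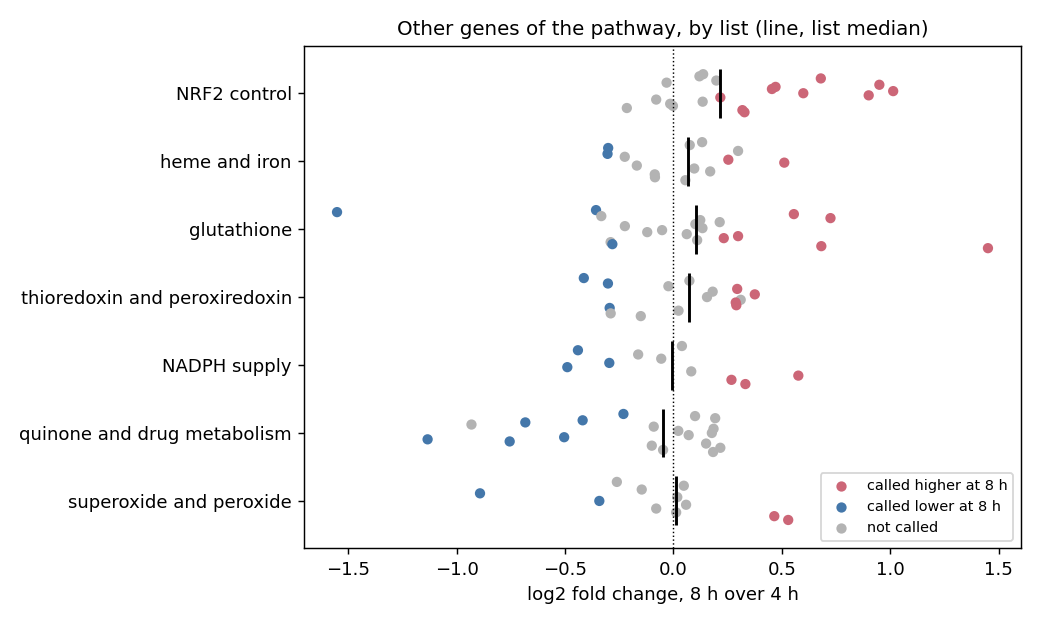
The log2 fold change from 4 h to 8 h (horizontal axis) of the 108 tested pathway genes other than the 9, by list, in red where higher and in blue where lower at an adjusted p below 0.05, in grey otherwise, with the list median as a black line. The red points of NRF2 control and the absence of red points in quinone and drug metabolism stand out, and the outermost points are SLC7A11 at 1.45 and CHAC2 at −1.55.

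The genes whose pattern over the 4 libraries was most like that of HMOX1 were sought among 9396 tested genes with a mean count of at least 100, by the Euclidean distance between log2 TMM-CPM centred on each gene's mean. The nearest were ENTPD7 (distance 0.13, log2FC 1.42), TGIF1 (0.15, log2FC 1.45), HSPA1A (0.16, log2FC 1.53), SLC2A3 (0.20, log2FC 1.72) and IL6 (0.21, log2FC 1.55). None is a member of the 7 lists. HSPA1A shares nearly all its sequence with HSPA1B and SLC2A3 much of it with SLC2A14, so the counts of both are uncertain. With 4 libraries this distance reflects mostly the size of the change between the times.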

How the data were processed

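Reads that passed FASTQC were aligned by the authors with Bowtie 1.2.0 (hg19), and those with a single position were kept. The deposited values are raw counts per NCBI Gene ID for each of the 4 libraries, without normalization. The annotation, counting tool and use of strand are not given in the sources used here. Unspliced mapping loses reads across splice junctions.

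The filter on low expression required a CPM over 1 in 2 or more libraries. After TMM scaling, the times were compared by the quasi-likelihood test of edgeR 4.0.16 (R 4.3.3) with Benjamini-Hochberg adjustment over all 12559 genes. Standard errors of log2FC were derived from the F statistic. Limma-Voom (limma 3.58.1), DESeq2 1.42.0, other scalings and filters, a replicate block, a loess correction (span 0.3) for the trend with mean expression, and leaving out each library were alternatives. The scripts were tested on simulated data first.

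The 9 genes and the lists were chosen with earlier results of these data known. Named from each list were DEGs (adjusted p below 0.05 and absolute log2FC above 1) and the 2 largest rises and 2 largest falls with an adjusted p below 0.05. For likeness to HMOX1 the 5 nearest genes were named, on log2 of TMM-CPM plus 0.5.

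Symbols came from the RefSeq table of GRCh38.p14 (23308 of 23459 IDs matched). Positions on GRCh37, the assembly of hg19, and canonical transcript lengths came from GENCODE. Of the tested genes, 81.1% had a RefSeq promoter window. The labels name separate replicates, without saying how the cultures were separated. The methods call them biological replicates. With 2 libraries per time, an exact two-sided permutation test cannot go below 0.333, and the adjusted p depends on a spread estimated over all genes (biological coefficient of variation 6.52%).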

Additional observations from a re-analysis of the deposited data

How the results depend on the processing

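Of 108 log2FC of the 9 genes under alternatives, 96 moved by less than the replicate SD, and those of HMOX1 ran from 1.40 to 1.62. Between 5 and 6 of the 9 genes passed, NFE2L2 being the gene that was lost. The number was 5 with DESeq2, library size alone, the other filters and the trend correction, and 6 with Limma-Voom. NFE2L2 also depended on the replicates, its log2FC running from 0.12 to 0.27 with libraries left out in turn. Without each library in turn, the genes called ran from 3061 to 4838 (4867 with all), the fewest without replicate 1 at 4 h and 3116 without replicate 2 at 4 h, and the pathway genes called ran from 29 (without replicate 1 at 4 h) to 47 (46 with all). Such fits leave 1 library at a time, assumed to vary like the others. With the fold-change threshold, 4 pathway genes were called. DESeq2 called 3303 genes and 37 pathway genes. Library size alone gave 18 pathway genes higher and 23 lower, where 1698 and 3289 of all tested genes were. Correction for the trend with mean expression gave 18 and 19, where 2276 and 2309 of all tested genes were. With neither change there were 27 and 19, where 2500 and 2367 of all tested genes were. The named pathway genes kept their sign in all 288 fits and passed in 263. With the replicate number as a block, 5493 genes, 49 pathway genes and 6 of the 9 genes were called, so the block ended none of the 6 calls. Deviations of same-numbered libraries correlated at 0.05 over all tested genes. Counting noise lowers such a value, so it cannot show whether the numbers pair the samples. The fit reported above did not pair them. Depth limits OSGIN1, CHAC2 and genes of similar counts most.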
